A study of Mus musculus with 4 samples.

Results

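The genes described here are 8 forkhead transcription factors of facial mesenchyme, Foxf2, Foxd1, Foxd2, Foxc1, Foxc2, Foxp1, Foxp2 and Foxp4. They were chosen by symbol from a fixed list, and all 8 were found among the 22072 genes in the deposited tables. RNA was sequenced from mouse molar tooth mesenchyme at embryonic day 13.5, captured by laser from frozen sections. The mutant genotype was Bmp4f/f;Wnt1Cre, in which both floxed alleles of the ligand gene Bmp4 are open to deletion in cells with Wnt1Cre, a Cre driver of the neural crest. The control genotype was Bmp4f/+, with 1 floxed allele and no Cre named in its label, so an effect of the Cre transgene and the loss of Bmp4 cannot be told apart. All embryos were of mixed background. The 4 groups, upper and lower molars of each genotype, have 1 library each, and the series description speaks of 3 pairs of control and mutant samples pooled before RNA extraction.

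Forkhead factors bind DNA through a winged-helix domain that is shared by the whole family. In the embryonic face several of them are known to act downstream of hedgehog signals from the epithelium, and in palate mesenchyme the Foxf factors are known to repress the growth factor gene Fgf18. Foxc factors are known for roles in skull, eye and vessel development. Foxp factors bind DNA as dimers and recruit corepressor complexes to their targets.

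Values are FPKM, a read number divided by transcript length and by library depth, summed over the transcripts of a gene. Depth was between 4820000 and 5550000 approximate reads on annotated transcripts per library. Bmp4 stood at 24.8 (upper) and 27.2 FPKM (lower) in controls, against 4.75 and 4.90 FPKM in mutants, which matched the genotype labels. The labelled tissue was checked with 17 mesenchyme markers, all of which averaged 1 FPKM or more. limma called 0 of them for genotype or molar, with 10 and 13 at an unadjusted p under 0.05. Over all 10502 genes averaging 1 FPKM or more that p was reached by 13.2% for genotype and 10.2% for molar, smaller shares than among the markers. Jaw labels were checked with position genes. Pou3f3, an upper jaw gene, had 17.4 and 20.0 FPKM in the upper and 2.56 and 4.09 FPKM in the lower molars, while Dlx5 had 14.6 and 10.1 FPKM in the upper and 39.2 and 28.9 FPKM in the lower molars. In its list of mandibular position genes 4 of 9 were tested, with 2 higher in the lower molar (Dlx5 and Dlx6) and 1 lower in the mutant (Dlx3). Of 8 maxillary position genes 5 were tested, with Pou3f3 lower and Shox2 higher in the lower molar.

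The promoters of Foxf2 and Foxp4, which had the widest differences of the higher genes, and of 2 alternative starts of Foxp1 are shown first, since the results turn on these genes. The RefSeq promoter table (build GRCm38.p6) held 8 windows of 300 bases for 6 of the 8 genes. The 250 bases before the start are printed 5′ to 3′ on the strand of the gene. Capitals mark a match to any of 4 motifs searched on both strands. These were CCACCCA (core of the site of the hedgehog effectors Gli), GGCGCC (a GC-rich element bound by BMP-activated Smads), TGTTTAC (a forkhead site) and TAATTG (a homeodomain core), and no 2 of them overlap in these windows.
Foxf2, chr13:31625566-31625815, plus strand: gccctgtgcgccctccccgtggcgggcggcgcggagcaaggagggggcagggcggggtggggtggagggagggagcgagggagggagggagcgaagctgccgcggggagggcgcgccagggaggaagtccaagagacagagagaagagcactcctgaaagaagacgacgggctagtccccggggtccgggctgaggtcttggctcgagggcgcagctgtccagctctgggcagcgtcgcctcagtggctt
Foxp4, chr17:47924633-47924882, minus strand: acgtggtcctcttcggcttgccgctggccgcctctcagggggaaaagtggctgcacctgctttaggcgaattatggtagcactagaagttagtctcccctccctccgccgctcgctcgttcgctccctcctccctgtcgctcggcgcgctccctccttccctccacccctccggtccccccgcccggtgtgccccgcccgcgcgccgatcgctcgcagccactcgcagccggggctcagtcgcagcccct
Foxp1, start of the shortest transcript, chr6:99028299-99028548, minus strand: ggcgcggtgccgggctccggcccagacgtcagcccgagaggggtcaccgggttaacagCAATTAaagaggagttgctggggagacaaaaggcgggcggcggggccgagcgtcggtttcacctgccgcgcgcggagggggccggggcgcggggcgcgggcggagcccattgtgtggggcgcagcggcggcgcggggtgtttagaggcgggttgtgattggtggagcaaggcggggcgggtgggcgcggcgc
Foxp1, start of the middle transcript, chr6:99266516-99266765, minus strand: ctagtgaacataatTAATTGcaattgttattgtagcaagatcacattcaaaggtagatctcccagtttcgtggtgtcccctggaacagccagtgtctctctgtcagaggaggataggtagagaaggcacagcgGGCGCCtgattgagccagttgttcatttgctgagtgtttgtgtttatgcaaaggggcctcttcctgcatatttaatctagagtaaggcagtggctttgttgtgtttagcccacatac

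Promoters of Foxf2 and Foxp4 had no match, so their sequences carry no capitals. The shortest-transcript start of Foxp1 had TAATTG on the opposite strand, beginning 192 bases before the start. The middle start had TAATTG and GGCGCC, beginning 236 and 117 bases before it. Over all 8 windows, GGCGCC was found in 3 (the other two in Foxc1 and at the outermost start of Foxp1), TAATTG in 2, and CCACCCA and TGTTTAC in 0. Among 32851 promoter windows of the same length, GGCGCC was in 11.9%, TAATTG in 8.0%, CCACCCA in 9.30% and TGTTTAC in 3.65%. A match is a description of these letters only. The Foxf2 and Foxp4 windows had 71.3% and 70.3% GC, against a median of 52.7% over all windows. Between the Foxp1 starts the composition differed, with 75.3% GC and 44 CpG dinucleotides at the shortest and 48.7% GC and 5 CpG dinucleotides at the middle start.

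Levels of the 8 genes formed a higher and a lower set. Foxp4, Foxf2 and Foxp1 had a mean of 12.7, 8.44 and 5.67 FPKM over the 4 libraries and together made up between 90.3% and 93.9% of the summed FPKM of the 8 genes. The other 5 had means under 1 FPKM, which were 0.666 FPKM for Foxc1, 0.546 FPKM for Foxd1, 0.485 FPKM for Foxp2, 0.265 FPKM for Foxd2 and 0.136 FPKM for Foxc2. In the order of means, the gap between Foxp1 (lowest library 4.62 FPKM) and Foxc1 (highest library 1.07 FPKM) was the only step at which the ranges of neighbours did not overlap. Foxp4 was above Foxf2 and Foxf2 above Foxp1 in each of the 4 libraries, although their ranges overlapped. FPKM is scaled by transcript length, so these are levels per length.

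**Figure D1:**
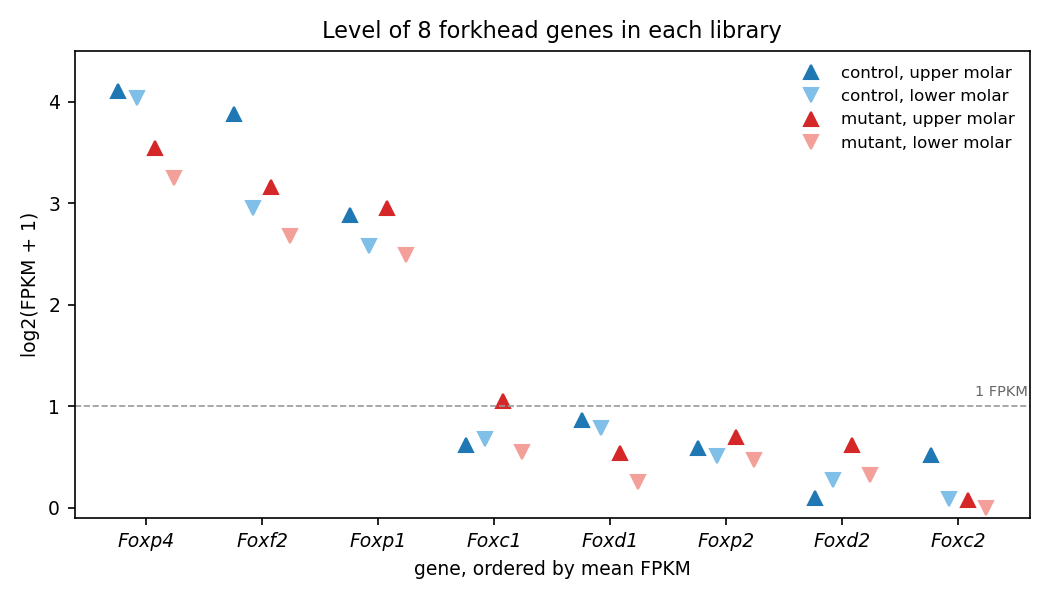
Level of each gene in each library, as log2(FPKM + 1) on the vertical axis, with genes ordered by mean FPKM, 1 pooled library per point and the dashed line at 1 FPKM. Foxp4, Foxf2 and Foxp1 lie above the line in every library, and of the other 5 genes only Foxc1 reaches it, in the mutant upper molar (1.07 FPKM).

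Set against the whole family, the 8 genes were a minor share. Of 44 forkhead genes listed, 15 averaged 1 FPKM or more and 9 were listed at 0 in all 4 libraries. The family sum was 182 FPKM in the control upper, 166 FPKM in the control lower, 154 FPKM in the mutant upper and 136 FPKM in the mutant lower molar. The 8 genes made up between 14.5% and 21.2% of it. Foxf1a, the older symbol of the Foxf2 paralog Foxf1, had the highest mean of the family and alone made up between 21.6% and 26.8%.

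Several of these genes lie beside other forkhead genes on the chromosome, and neighbours differed widely in level. On chromosome 13 Foxf2 lies between Foxq1, 64.8 kb away, and Foxc1, 175 kb away, and its mean was 31.7 times that of Foxq1 and 12.7 times that of Foxc1. On chromosome 8 Foxc2 lies 29.3 kb from Foxf1a and 8.79 kb from Foxl1. Foxf1a had a mean of 39.7 FPKM and Foxl1 of 0.166 FPKM, against 0.136 FPKM for Foxc2. No other gene in the deposited tables overlapped any of the 8 loci.

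The first comparison asked how the forkhead genes stood in the mutant. Foxp4 and Foxf2 had lower mutant values in each molar and Foxp1 differed little, and none of these 3 tested genes passed the test across all genes. Only genes averaging 1 FPKM or more were tested, which left 10502 genes. limma was fitted on log2(FPKM + 1) with genotype and molar as terms, and 84 genes (0.8%) had an adjusted p under 0.05, of which 36 (0.343% of tested genes) were higher and 48 (0.457%) lower in the mutant. Of the 3 tested forkhead genes 0 were called, and 2 (Foxp4 and Foxf2) had an unadjusted p under 0.05, both lower in the mutant. Over all tested genes that p was reached by 13.2%, and by 6.51% with the mutant lower. The p-values rest on the disagreement of the genotype difference between molars, drawn mostly from genes of similar expression. Spread from embryo to embryo or from pool to pool is not in them. Within a molar each genotype had 1 library, so a difference there has no replicate check.

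Foxp4, a transcriptional repressor (chromosome 17, 48004082 to 48061581, mm9), stood at 16.1 FPKM (control upper), 15.4 FPKM (control lower), 10.7 FPKM (mutant upper) and 8.47 FPKM (mutant lower). Both mutant libraries lay below both controls, at 66.1% of the control (upper molar) and 55.0% (lower molar). Such a separation, with the mutant lower, was seen in 23.1% of all tested genes. The values rest on between 477 and 846 approximate reads per library. Over both molars the difference of mutant minus control was -0.67 ± 0.11 (log2, SE, limma adjusted p = 0.067, unadjusted p = 0.0007). limma called Foxp4 lower when only genes averaging 5 FPKM or more were tested (adjusted p = 0.0053). It also did so after rescaling by median ratios (0.046, with 0.447% of genes called lower). The same call was made without transcripts under 0.3 kb (0.030, with 68 of 10414 genes called lower). The first of these settings called 1.19% of its 5307 genes lower in the mutant. Over all 12 alternatives the adjusted p ranged from 0.0053 to 0.979.

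Foxf2, a mesenchymal factor whose loss in mice gives cleft palate (chromosome 13, 31717685 to 31723275), stood at 13.7 FPKM (control upper), 6.75 FPKM (control lower), 7.94 FPKM (mutant upper) and 5.40 FPKM (mutant lower). The control upper library stood apart from the other 3, and the genotypes overlapped, since the mutant upper was above the control lower molar. The mutant had 58.2% of the control FPKM (upper molar) and 80.0% (lower molar). Over both molars the difference was -0.49 ± 0.14 (log2, SE, limma adjusted p = 0.21, unadjusted p = 0.0086). Without the control upper library it was -0.04, without the control lower library -0.95, without the mutant upper library -0.74 and without the mutant lower library -0.25.

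Foxp1, a repressor of the same subfamily as Foxp4 (chromosome 6, 98875336 to 99385339), had 6.37 (upper) and 4.98 FPKM (lower) in controls, against 6.71 (upper) and 4.62 FPKM (lower) in mutants. The genotypes overlapped, with both upper libraries above both lower ones. The genotype difference was -0.01 ± 0.11 (log2, SE, limma adjusted p = 0.98). Its sign was positive after rescaling (0.01) and without the control upper (0.14) or mutant lower (0.22) library. Fits without a library had no molar term, so their values also carry the jaw difference.

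**Figure D2:**
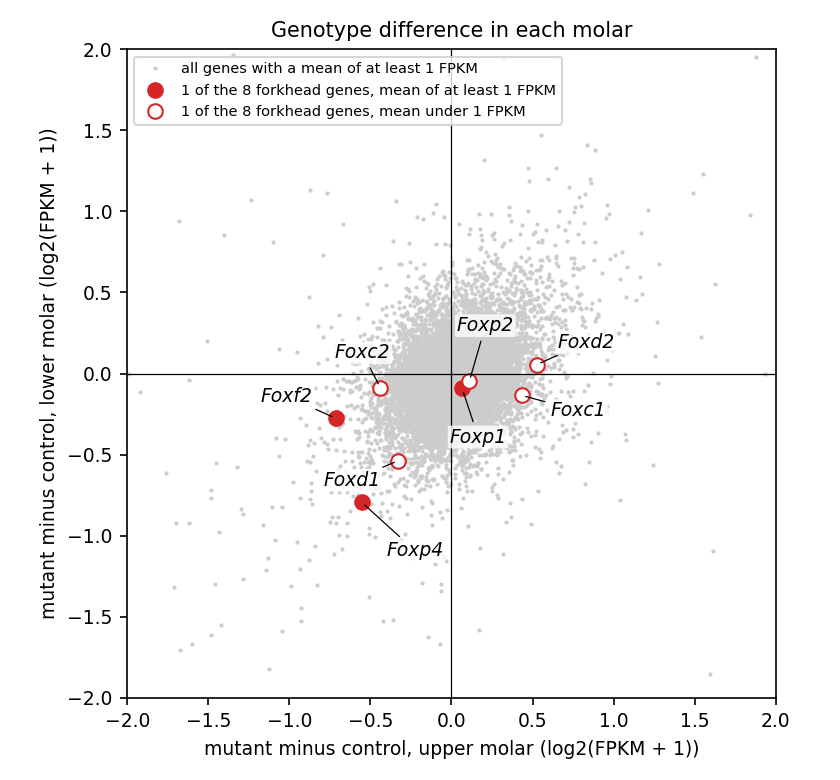
Difference of mutant minus control in log2(FPKM + 1), in the upper molar on the horizontal and in the lower molar on the vertical axis, for all 10502 tested genes (grey, with 53 beyond the axes at 2) and the 8 forkhead genes (red, open where the mean is under 1 FPKM). Foxp4, Foxf2, Foxd1 and Foxc2 lie below 0 on both axes, and Foxd2 above 0 on both.

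The other 5 genes were below the limit for the test. Their values are given with approximate reads, taken as aligned bases divided by 44.2 bases, and with 95% intervals of read ratios (exact, Clopper-Pearson). These intervals cover counting error only, since amplified reads are not independent molecules, and a ratio is between single libraries.

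Foxd1, a factor of facial and kidney mesenchyme (chromosome 13, 99124200 to 99126660), stood at 0.819 FPKM (control upper), 0.726 FPKM (control lower), 0.449 FPKM (mutant upper) and 0.189 FPKM (mutant lower). Both mutants lay below both controls. These values came from 26, 23, 16 and 7 reads. The ratio of mutant to control was 0.543 (0.272 to 1.05) for the upper and 0.282 (0.102 to 0.678) for the lower molar.

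Foxd2, its paralog (chromosome 4, 114578885 to 114581503), had 0.0676 FPKM in the control upper, 0.204 FPKM in the control lower, 0.538 FPKM in the mutant upper and 0.251 FPKM in the mutant lower molar, from 2, 7, 21 and 9 reads. Here both mutants lay above both controls. The ratio of mutant to control was 9.26 (2.26 to 81.4) in the upper molar, where the control had 2 reads, and 1.19 (0.394 to 3.76) in the lower molar.

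Foxc1 (chromosome 13, 31898515 to 31902504), which acts in skull and eye mesenchyme, had 0.532 FPKM in the control upper, 0.603 FPKM in the control lower, 1.07 FPKM in the mutant upper and 0.460 FPKM in the mutant lower molar, from 28, 31, 63 and 26 reads. The mutant upper library was the high one and the other 3 were close together. The ratio of mutant to control was 1.98 (1.25 to 3.22) for the upper and 0.776 (0.443 to 1.35) for the lower molar.

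Foxc2 (chromosome 8, 123640071 to 123642794), known for its role in vessels and mesenchyme, had 0.429 FPKM in the control upper, 0.0617 FPKM in the control lower and 0.0542 FPKM in the mutant upper molar, from 15, 2 and 2 reads. It was listed at 0 in the mutant lower molar, where 3 reads would have been 0.0782 FPKM. The control upper library was the only one above the level of 3 reads. In the upper molar the ratio of mutant to control was 0.118 (0.0130 to 0.506). In the lower molar both genotypes were under that level and no difference could be detected at this depth.

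Foxp2 (chromosome 6, 14851349 to 15391977), the third of the Foxp genes here, had 0.505 (upper) and 0.427 FPKM (lower) in controls, against 0.625 (upper) and 0.381 FPKM (lower) in mutants, from 43, 37, 61 and 35 reads. The genotypes overlapped. The ratio of mutant to control was 1.25 (0.833 to 1.89) for the upper and 0.876 (0.536 to 1.43) for the lower molar, and both intervals contain 1.

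Counted over the 8 genes without regard to the test, 4 had lower mutant values in each molar (Foxp4, Foxf2, Foxd1 and Foxc2), 1 was higher in both (Foxd2) and 3 went opposite ways. Among all tested genes 32.4% were below and 27.2% above 0 in both molars. The mutants lay below both controls for Foxp4, Foxd1 and Foxc2 and above both for Foxd2, against 23.1% and 18.4% of tested genes, or 41.5% in either direction. Foxd1, Foxc2 and Foxd2 averaged under 1 FPKM, while these shares cover only genes averaging 1 FPKM or more. For Foxc2 every library but the control upper was under the level of 3 reads, so its order among them cannot be read. In the upper molar 4 of the 8 genes were lower in the mutant and in the lower molar 7 were, where 46.8% and 58.3% of tested genes were. None of the 8 genes reached an absolute log2 difference of 1 in either molar, as 1.01% of tested genes did (upper molar) and 1.1% (lower molar). On this scale the change of genes under 1 FPKM is understated, and at a pseudocount of 0.1 FPKM Foxd1 stood at -1.51 in the lower molar, and Foxd2 at 1.93 and Foxc2 at -1.78 in the upper molar. No share of all tested genes was taken at that pseudocount. The Foxd2 value rests on 2 reads in the control upper and the Foxc2 value on 2 reads in the mutant upper molar.

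The second comparison asked how the 8 genes differed between the jaws. Of the 3 tested genes Foxf2 had the widest difference, with a lower FPKM in the lower than the upper molar in both genotypes. It had 49.5% of the upper molar FPKM in the lower molar of controls and 68.0% in mutants. Some genes under 1 FPKM had smaller such shares on few reads, which were 14.4% for Foxc2 in controls, and 43.0% for Foxc1, 42.2% for Foxd1 and 46.7% for Foxd2 in mutants. The difference of lower minus upper molar was -0.92 in controls and -0.48 in mutants, and -0.70 ± 0.14 over both (log2, SE, limma adjusted p = 0.11, unadjusted p = 0.0014). Both lower libraries lay below both upper ones, as did those of 21.2% of tested genes. limma called Foxf2 lower in the lower molar among genes averaging 5 FPKM or more (adjusted p = 0.0095, 1.19% of genes called this way). It also did so without transcripts under 0.3 kb (0.045, with 69 of 10414 genes called this way). These were 2 of 12 alternatives, and with low values unfiltered the limma adjusted p was 0.79. Leaving out the control upper library gave -0.34 and leaving out the mutant upper library -1.06. These fits had no genotype term, so their values also carry the genotype difference. In bulk tissue, fewer cells that express a gene and less RNA per cell cannot be told apart.

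In all, limma called 76 genes (0.724%) between jaws, 41 higher (0.39%) and 35 lower (0.333%) in the lower molar. It called 0 of the 3 tested forkhead genes, of which 2 (Foxf2 and Foxp1) had an unadjusted p under 0.05, both lower in the lower molar. Of all tested genes 10.2% reached that p, and 6.12% with the lower molar lower. Foxp1 was lower in the lower molar by 0.30 in controls and 0.46 in mutants, a difference of -0.38 ± 0.11 over both (log2, SE, limma adjusted p = 0.29, unadjusted p = 0.012). Foxp2, which averaged under 1 FPKM and was not tested, also had both lower libraries below both upper ones. With Foxf2 and Foxp1 this made 3 of the 8 genes, all in 1 direction, while 33.4% of tested genes had jaws that did not overlap in either direction (21.2% with the lower molar lower). For Foxp4 the jaw difference was -0.06 in controls and -0.30 in mutants (limma adjusted p = 0.68 over both, with the SE of 0.11). Fits without the control upper or the mutant lower library gave 0.10 and 0.22. They had no genotype term, so these positive values also carry the genotype difference, while within each genotype the jaw difference was negative.

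In mutants all 8 genes were lower in the lower than in the upper molar, and in controls 6 of 8 were, with Foxc1 and Foxd2 the exceptions. For Foxc2 both mutant libraries (0.0542 FPKM upper and 0 FPKM lower) were under the level of 3 reads, so its direction in mutants cannot be read. The share of all tested genes below 0 was 63.3% in mutants and 50.8% in controls, and 35% were below 0 in both. On the log2(FPKM + 1) scale no forkhead gene of the 8 reached an absolute difference of 1 between jaws, as 0.971% of tested genes did in controls and 1.28% in mutants. At a pseudocount of 0.1 FPKM Foxf2 (-1.01) and Foxc2 (-1.71) did in controls and Foxc1 (-1.06) in mutants. The share of all tested genes past that limit was not taken at this pseudocount. Foxc2 rested on 15 reads in the control upper and 2 in the control lower molar. After rescaling by median ratios the share of tested genes below 0 was 46.6% in mutants, and the 8 genes were still below 0. Whether the count differs between genotypes was not tested, and 5 of the 8 genes had 63 reads or fewer in every library. In mutants the read ratio of lower to upper molar was 0.461 (0.161 to 1.19) for Foxd1 and 0.452 (0.182 to 1.03) for Foxd2, and both intervals contain 1. It was 0.435 (0.265 to 0.697) for Foxc1 and 0.605 (0.388 to 0.932) for Foxp2, and these intervals do not.

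**Figure D3:**
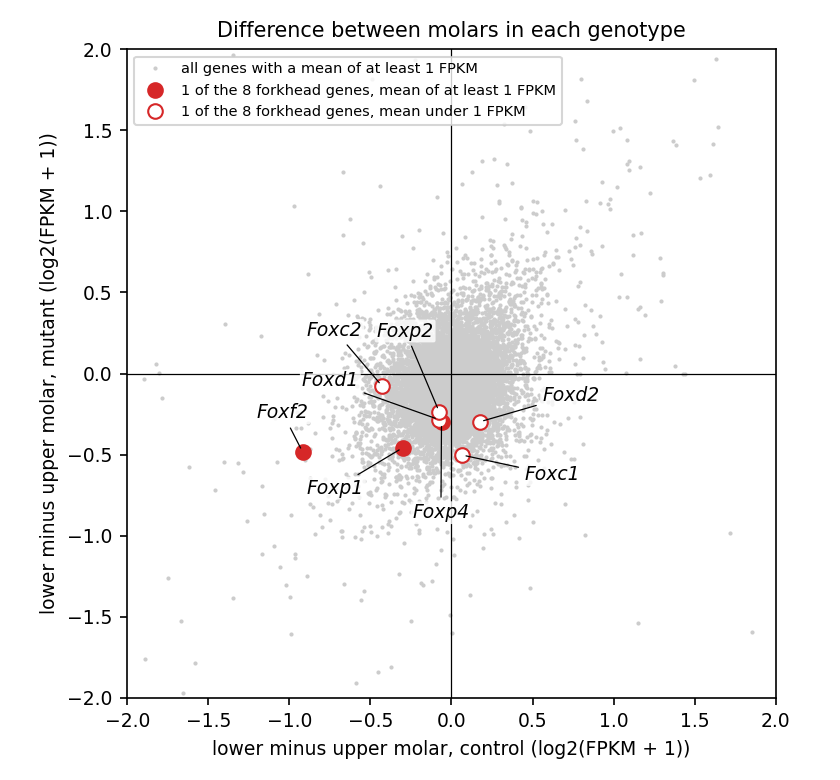
Difference of lower minus upper molar in log2(FPKM + 1), in controls on the horizontal and in mutants on the vertical axis, for all 10502 tested genes (grey, with 53 beyond the axes at 2) and the 8 forkhead genes (red, open where the mean is under 1 FPKM). All 8 lie below 0 on the vertical axis, and Foxf2 lies farthest left, at -0.92.

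Foxf2 was then set beside its paralog and beside Fgf18, a fibroblast growth factor gene that Foxf factors are known to repress in the palate. Foxf1a had 48.7 (upper) and 42.6 FPKM (lower) in controls, against 38.1 (upper) and 29.4 FPKM (lower) in mutants. Like Foxf2, it was lower in the mutant in both molars and lower in the lower molar in both genotypes, without passing the test for genotype (limma adjusted p = 0.18) or molar (0.45). Unlike Foxf2, its 2 mutant libraries both lay below its 2 controls.

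Fgf18 had 4.67 FPKM in the control upper, 12.1 FPKM in the mutant upper, 16.4 FPKM in the control lower and 34.0 FPKM in the mutant lower molar. The order of these 4 libraries is the exact reverse of the order for Foxf2, which was 13.7, 7.94, 6.75 and 5.40 FPKM. Fgf18 was called higher in the mutant by 1.11 ± 0.11 and higher in the lower molar by 1.51 ± 0.11 (log2, SE, limma adjusted p = 0.017 and 0.0035). Each of these calls was made in 6 of 12 alternatives. The order over 4 libraries is a description and carries no test. It was not particular to Fgf18, since Shox2 (9.19, 14.5, 19.1 and 31.6 FPKM) and Pax9 (57.4, 74.9, 84.9 and 108 FPKM) rose in the same order. The share of all tested genes with this order was not taken. Foxf1a did not have the order of Foxf2, as its control lower molar (42.6 FPKM) was above its mutant upper molar (38.1 FPKM).

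**Figure D4:**
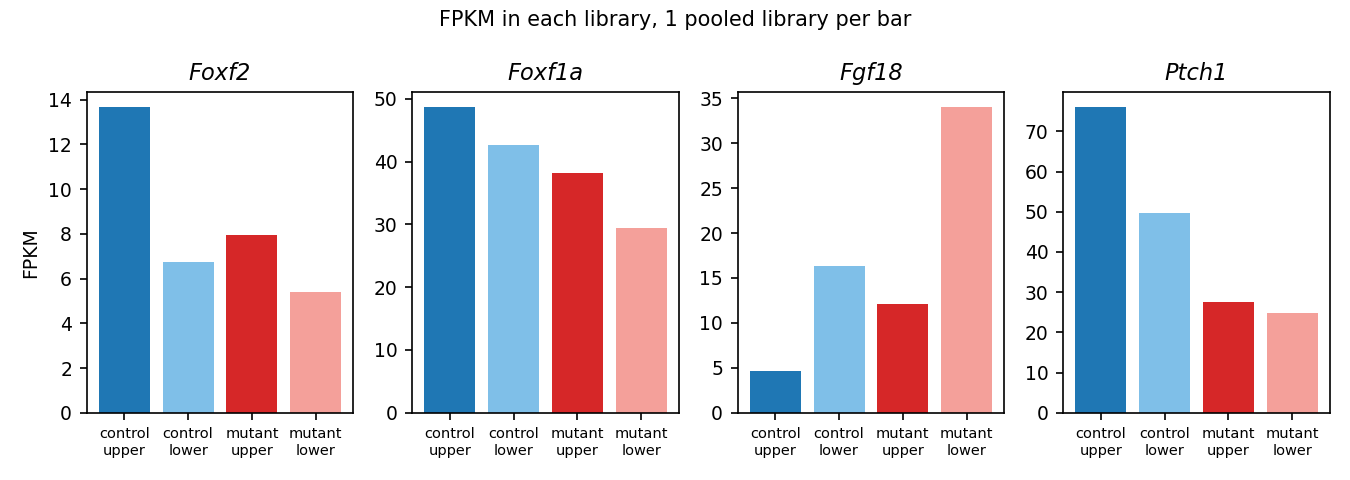
FPKM of Foxf2, Foxf1a, Fgf18 and the hedgehog receptor gene Ptch1 in each library, 1 pooled library per bar, with a vertical axis from 0 of its own in each panel. Foxf2 runs from 13.7 FPKM in the control upper to 5.40 FPKM in the mutant lower molar, and Fgf18 runs the opposite way, from 4.67 to 34.0 FPKM.

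Hedgehog pathway and response genes, a list that includes the receptor and effectors through which facial forkhead genes are known to be induced, had 10 of 11 genes tested. limma called 2 lower in the mutant and 0 between jaws, with an unadjusted p under 0.05 for 5 and 2 genes. The 5 comprised 4 lower and 1 higher in the mutant. The latter was the coreceptor gene Cdon, with 5.97 (upper) and 7.50 FPKM (lower) in controls, against 10.4 (upper) and 10.9 FPKM (lower) in mutants (limma adjusted p = 0.099). The called genes were Ptch1, with 76.0 (upper) and 49.7 FPKM (lower) in controls, against 27.5 (upper) and 24.8 FPKM (lower) in mutants, and the effector Gli1, with 23.8 and 22.9 FPKM against 14.2 and 11.6 FPKM (limma adjusted p = 0.022 and 0.036). These calls were made in 6 and 5 of 12 alternatives. The list median for genotype was -0.24, against -0.02 over all tested genes. Ptch1 was higher in the control upper than the control lower molar, as Foxf2 was, by 0.60 on the log2 scale. Gli1 differed there by 0.05.

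Among BMP response genes 12 of 14 were tested, all 12 were lower in both mutant molars, and limma called 4 lower (Hey1, Id3, Msx2 and Smad9), with 10 at an unadjusted p under 0.05. Their median was -0.57.

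CtBP and NuRD corepressor subunits, through which Foxp factors are known to act, were all 15 tested. limma called 0 for genotype and 0 for molar, with 0 and 2 at an unadjusted p under 0.05, and their median genotype difference was -0.07. The partner gene levels ranged widely, and Gatad2b, a subunit of NuRD, had 31.4, 29.9, 30.7 and 30.5 FPKM in the control upper, control lower, mutant upper and mutant lower molar. Hdac1 had the largest jaw difference of the list, at -0.39 over both genotypes (limma adjusted p = 0.26).

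Of 12 genes linked to these factors in mesenchyme, 9 were tested. limma called Fgf18 higher and Bmp4, Msx2 and Sox9 lower in the mutant, and Fgf18 higher in the lower molar. The list median for genotype was 0.02. Sox9, a cartilage factor, had 8.78 (upper) and 5.04 FPKM (lower) in controls, against 3.43 (upper) and 1.60 FPKM (lower) in mutants (limma adjusted p = 0.015). Runx2, the osteoblast factor that Foxp proteins are known to bind, had 62.2 (upper) and 48.2 FPKM (lower) in controls, against 39.5 (upper) and 31.0 FPKM (lower) in mutants (limma adjusted p = 0.056). Cxcl12, a chemokine gene known to depend on Foxc1 in bone marrow, had 38.4 and 40.2 FPKM against 59.8 and 47.2 FPKM (limma adjusted p = 0.24). Tbx1 and Alx4 were under 1 FPKM in each library, and Shh was at or under 0.048 FPKM.

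Foxp1, Foxp2 and Foxp4 were each listed with more than 1 transcript, and the division among them differed between libraries while the gene totals were steadier. The shortest Foxp1 transcript (6632 bases, starting at 98978292) had 1.57 FPKM in the control upper, 0.524 FPKM in the control lower, 4.83 FPKM in the mutant upper and 0.606 FPKM in the mutant lower molar. It made up 71.9% of Foxp1 in the mutant upper molar and between 10.5% and 24.6% in the other libraries. The longest Foxp1 transcript (7177 bases, starting at 99385339) had 4.05 FPKM in both controls and 1.39 and 2.62 FPKM in the mutants. The middle one (7025 bases, starting at 99216509) had between 0.411 and 1.39 FPKM. The starts of the shortest and middle transcripts lie 238 kb apart in the files, the same distance as between the promoter windows printed for them. The starts of the middle and longest transcripts lie 169 kb apart, while the middle and outermost windows lie 254 kb apart. The outermost window thus does not match the start of the longest listed transcript.

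The 3 transcripts of Foxp4 share their start and end, and 2 of them differ in length by 3 bases (3986 and 3989 bases). The 3986-base transcript made up 58.8% of Foxp4 (control lower), 20.2% (mutant lower) and under 0.01% in both upper molars. For Foxp2 the 6760-base transcript made up 54.7% in the control lower and 42.7% in the mutant upper molar, and under 0.1% in the other libraries. These divisions are the authors' estimates from reads that transcripts share, the tables give no confidence limits for them, and no test was run on them.

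**Figure D5:**
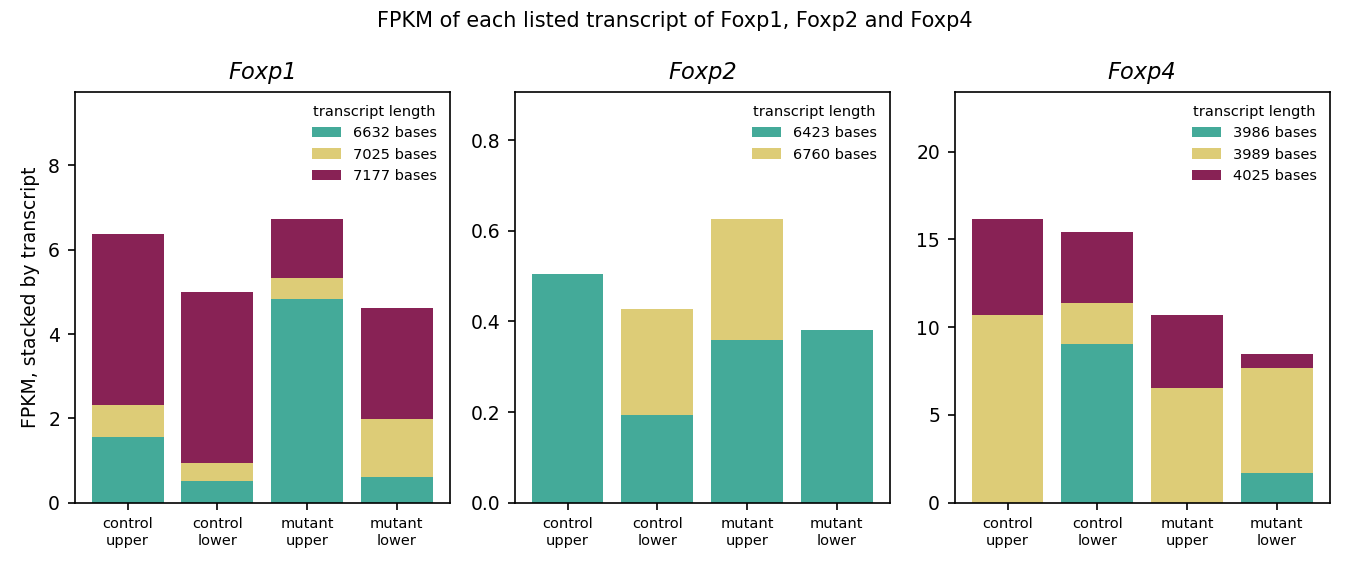
FPKM of each listed transcript of Foxp1, Foxp2 and Foxp4, stacked to the gene total on the vertical axis, for the 4 libraries, 1 pooled library per bar. The shortest Foxp1 transcript is the largest segment in the mutant upper molar (4.83 FPKM) and the longest one in the other libraries, and the segments of Foxp4 differ more between libraries than its total.

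The remaining forkhead genes averaging 1 FPKM or more were 12, and limma called 0 of them for genotype and 0 for molar, with 2 each at an unadjusted p under 0.05. For genotype these were Foxf1a and Foxm1, a cell cycle factor, with 19.2 (upper) and 19.3 FPKM (lower) in controls, against 16.8 (upper) and 12.7 FPKM (lower) in mutants. For molar they were Foxf1a and Foxo3, a stress response factor, with 10.4 (upper) and 11.6 FPKM (lower) in controls, against 7.91 (upper) and 12.6 FPKM (lower) in mutants. Of the 12 genes, 4 were lower and 1 was higher in the mutant in both molars. Foxn3, Foxk2, Foxk1, Foxj3, Foxj2, Foxo1, Foxn2, Foxo4 and Foxr1 had means between 1.93 and 19.0 FPKM and genotype differences between -0.22 and 0.09.

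Genes whose profile over the 4 libraries was nearest to that of a member were taken among those averaging 5 FPKM or more, by Euclidean distance of centred log2(FPKM + 1), for the 3 members of widest range. Nearest to Foxf2 were Large, Tmem176a and Ppap2b (distances 0.27, 0.28 and 0.31 among 5306 genes). Nearest to Foxp4 were Zfhx3, H2afv and Sik3 (0.06, 0.12 and 0.13). Zfhx3, a homeobox and zinc finger factor, had 9.85 (upper) and 9.43 FPKM (lower) in controls, against 6.04 (upper) and 4.80 FPKM (lower) in mutants. Foxd1, whose low FPKM compresses its range on this scale, had Gtse1, Kif18b and Sox12 nearest (0.02, 0.02 and 0.03). With 4 libraries such likeness describes the profile and nothing more.

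Markers of other cell types were compared beside these values. Cartilage markers summed to 22.8, 15.5, 13.0 and 9.65 FPKM in the control upper, control lower, mutant upper and mutant lower molar, and pericyte and smooth muscle markers to 60.9, 57.4, 41.2 and 37.8 FPKM. Bone markers summed to 75.7, 63.5, 43.5 and 40.3 FPKM. These 3 sums ran in the same order of libraries as Foxp4, from highest in the control upper to lowest in the mutant lower molar. The other marker sums did not. The part of these 3 in the Foxp4 and Foxf2 values was not tested. Single markers did not all follow their sum. Rgs5, at 31.8, 25.05, 9.03 and 9.48 FPKM, was the largest part of the pericyte sum in controls, while Pdgfrb had 14.1, 15.6, 20.2 and 16.1 FPKM. Runx2 was most of the bone sum, while Alpl had 4.53, 7.13, 1.99 and 4.99 FPKM and Sp7 had 8.92, 7.04, 1.92 and 4.25 FPKM. Sox9 and Sox6 were the largest parts of the cartilage sum in the control upper molar, at 8.78 and 7.03 FPKM. Of the other cartilage genes Col2a1 had 4.20, 5.96, 4.17 and 6.23 FPKM, and Acan and Matn1 were at or under 0.051 FPKM in every library. The bone gene Bglap was listed at 0 in all 4. Of the 15 tested endothelial markers, all 15 were lower in mutants in the upper molar, and 9 were lower in the other, with sums of 80.4, 71.2, 60.1 and 66.8 FPKM. Nerve and glia markers summed to 3.34, 5.0, 8.84 and 7.40 FPKM, higher in both mutants. Of these 11 markers only Nefl was tested, with 0.632, 1.52, 6.89 and 4.15 FPKM (limma adjusted p = 0.057), and the part of these cells in the genotype differences was not tested. Epithelial markers summed to between 24.1 and 27.0 FPKM, macrophage markers to between 9.36 and 11.7 FPKM, skeletal muscle markers to between 3.03 and 3.36 FPKM and erythroid markers to between 920 and 1093 FPKM.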

How the data were processed

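The 4 libraries of laser-captured mouse molar mesenchyme comprised 1 for each genotype and molar. Per the labels' protocols, RNA was extracted with an RNeasy Micro kit, amplified to cDNA with NuGEN Ovation RNA-Seq v2 and made into libraries with Illumina Nextera. Reads were aligned with Bowtie 0.12.7 and TopHat 1.4.1 on mm9 (from the submitters' processing notes). Tables deposited by the authors follow the Cufflinks format and give FPKM per RefSeq transcript, normalised by the authors to mapped reads and transcript length. They also give a coverage signal per transcript, which the authors deposited beside FPKM and which was used here only to estimate reads (44.2 bases per read). The Cufflinks version and strand setting are not given in the sources used here. The 8 genes had the status OK in every library.

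FPKM was summed per gene symbol. Differences were taken on log2(FPKM + 1), which understates changes of weakly expressed genes. limma 3.58.1 in R 4.3.3 was fitted over the 10502 genes averaging 1 FPKM or more, with genotype and molar as terms, an intensity trend and Benjamini-Hochberg adjustment at 0.05, two-sided, and was checked on simulated data. The fit has 1 residual degree of freedom and 5.77 prior degrees of freedom. Gene coordinates are mm9, counted from 1, while promoter windows come from RefSeq on GRCm38.p6. The 8 genes and the gene lists were chosen with earlier results of these data known. Named genes were the 8, other forkhead genes averaging 1 FPKM or more or beside a member, Bmp4, list genes called or of largest effect, and the nearest profiles. Gtse1, Kif18b and the others named for likeness came from that last step. Gatad2b, Cxcl12, Tbx1, Alx4, Shh, Pax9 and the single markers of other cell types were singled out after their values were seen, as examples or checks. So was Shox2 in the comparison with Fgf18. A result of the position gene lists is not reported here. Alternatives were the pseudocount, the filter on low values, rescaling by median ratios, no intensity trend, no term for the other factor and leaving out transcripts under 0.3 kb. A further one left out each library together with the term for the other factor.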

Additional observations from a re-analysis of the deposited data

Results flagged for a closer look

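Of the 8 forkhead genes, 4 had differences that pointed opposite ways in the groups compared, each between single libraries, and none of these differences between groups was tested. The mutant minus control difference of Foxc1 was 0.43 (upper molar) and -0.13 (lower molar), which are -0.57 apart on the log2(FPKM + 1) scale. For Foxp1 it was 0.07 and -0.09, which are -0.16 apart, and for Foxp2 it was 0.11 and -0.05, which are also -0.16 apart. The lower minus upper molar difference of Foxc1 was 0.06 in controls and -0.50 in mutants, again -0.57 apart, and that of Foxd2 was 0.17 and -0.30, which are -0.47 apart. Over all tested genes the SD of such a gap was 0.37. Foxc1, Foxd2 and Foxp2 averaged under 1 FPKM and were not among those genes, so the SD is not one for genes of their level.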

How the results depend on the processing

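The number of genes that limma called for genotype, 84 of 10502, was 146 among genes averaging 5 FPKM or more, 133 without transcripts under 0.3 kb, 38 with the intensity trend left off, 7 with the molar left out of the model and 0 with low values unfiltered, where 1590 of 22072 genes had an unadjusted p under 0.05. For molar the 76 calls became 127, 139, 65, 12 and 0 (1402 at an unadjusted p under 0.05) in the same settings, with genotype left out of the model in place of the molar. Dropping a single library, and with it the other factor, gave between 5 and 22 calls for genotype and between 2 and 30 for molar. Of the 3 tested forkhead genes limma called 0 for genotype, and 1 (Foxp4) among genes averaging 5 FPKM or more, after rescaling and without short transcripts. The other 5 were tested only with low values unfiltered, where limma called 0 of the 8 for genotype or molar. For molar it called 0, and 1 (Foxf2) among genes averaging 5 FPKM or more and without short transcripts. Over the alternatives the Foxp4 genotype difference ranged from -0.82 to -0.52, with every value negative. The Foxf2 genotype difference ranged from -0.95 to -0.04 and its molar difference from -1.06 to -0.34. The ends of these ranges came from fits without a library, which had no term for the other factor and so mix both differences. No paired analysis was possible because the labels give no replicate numbers and each group has 1 library. Depth limits the 5 genes under 1 FPKM, whose 4 libraries together held between 20 and 175 approximate reads per gene.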
